A study of Rattus norvegicus with 2 samples.

Results

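The genes described here encode heterotrimeric G proteins and the proteins that end or redirect their signals. They were taken by symbol, as every gene on the array named Gna, Gnb, Gng, Rgs or Grk with a number or letter after it, plus Arrb1 and Arrb2, which gave 55 of the 14217 genes that the array could name. Of these, 14 encode G alpha subunits, 6 were taken under a G beta symbol, 9 encode G gamma subunits, 18 were taken under an RGS symbol, 6 encode G protein-coupled receptor kinases (GRKs) and 2 encode beta-arrestins. Together they had 84 of the 31042 probe sets, sets of short probes that are read together as 1 signal for a transcript. Each gene was read from the probe set that was brightest in mean log2 signal. A further 2 probe sets are assigned to 2 of these genes at once and were left out.

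RNA came from dorsal root ganglia (DRGs) of 4-week-old female Sprague-Dawley rats, 14 days after 100000 IP-B12 cells, which derive from a rat lung carcinoma and destroy bone, were placed in the marrow of the right tibia. DRGs of the right side (tumor) were hybridized to 1 array and DRGs of the left side (control) to 1 array. The left tibia was not described as sham injected and the number of rats behind each array is not stated in the text, so the tumor and the inoculation procedure cannot be told apart. Both sides came from tumor-bearing rats. As each side is 1 array, no spread between replicates is known, no test was made, and every ratio below describes these 2 arrays. Pairs of signals are given with the control side first, and log2 ratios are of tumor over control. Among 7 measured markers of sensory neurons (SNs), all were bright, from Isl1 at 370 (control) and 327 (tumor) to Calca, which encodes CGRP, at 9589 and 9765. Whole ganglia were used, so fewer cells of a type and less RNA per cell cannot be told apart. The arrays had median signals of 68.8 (control) and 72.4 (tumor), and over all genes the median log2 ratio was 0.08. For actin, probes at the 3′ end were 8.79 and 9.22 times as bright as those at the 5′ end, and for GAPDH 1.20 and 1.23 times. Among tissue markers, all 6 of skeletal muscle were lower by a fold of 2 or more on the tumor side, with summed signals of 1123 and 376. All 4 erythroid markers were lower, with 4328 and 3345, and so were the 3 measured granulocyte markers, with 1141 and 528. In the other direction, all 6 bone and cartilage markers were higher, with 1067 and 2114. The part of these tissues in the values below was not tested.

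A G protein couples a receptor in the membrane to enzymes and channels inside the cell. An activated receptor makes the alpha subunit exchange GDP for GTP, after which alpha and the beta-gamma pair act on separate effectors until alpha hydrolyses its GTP. RGS proteins speed up that hydrolysis, GRKs phosphorylate active receptors, and beta-arrestins then bind them. In SNs, Gs and Gq coupled receptors for inflammatory mediators sensitize the endings, while Gi and Go coupled opioid receptors silence them.

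The ganglia had bright probe sets for all 4 alpha classes, and the 2 arrays differed little in them. Across all 55 genes, the median log2 ratio was 0.03, against 0.08 for all genes. A ratio above 1 was found for 30 of the 55, against 65.5% of all genes. A fold of 2 or more was reached by 2 genes on the higher side and by 0 on the lower side, against 4.31% and 3.71% of all genes. The 2 were Rgs8 and Gnat1, both of low signal. Gnat1 was counted through a control-side signal no brighter than control probe sets for a bacterial transcript, so it holds no measured fold. MAS 5.0 ratios scatter more widely at low signal, so each log2 ratio was also placed among those of the 500 probe sets of other genes nearest in mean log2 signal, here called like probe sets. By this measure 4 of the 55 (7.27%) lay outside the central 95%, against 5.3% of all genes. They were Gng11 and Rgs18, higher on the tumor side, where 2.52% of all genes lay, and Gna14 and Rgs9, lower there, with 2.79% of all genes. Counts this small are close to the background. None of the 55 lay outside the central 99%. Above the median of like probe sets were 24 of the 55, against 49.3% of all genes. Of the 55, 35 had a mean log2 signal at or above the median over all probe sets, which corresponds to a signal of 70.2 (here called bright), and 20 did not (dim). The bright share was thus 63.6%, against 66.9% of all genes. A difference of less than a fold of 1.5 was found for 97.1% of the 35, against 98.6% of all bright genes. The ratios of the 35 bright genes ran from -0.38 to 0.66 on the log2 scale. Of these, 3 lay outside the central 95%, all but Rgs9 of the 4 named, against 5.26% of bright genes, and 0 reached a fold of 2 in either direction, against 0.0631% of bright genes on the higher side and 0.116% on the lower.

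**Figure D1:**
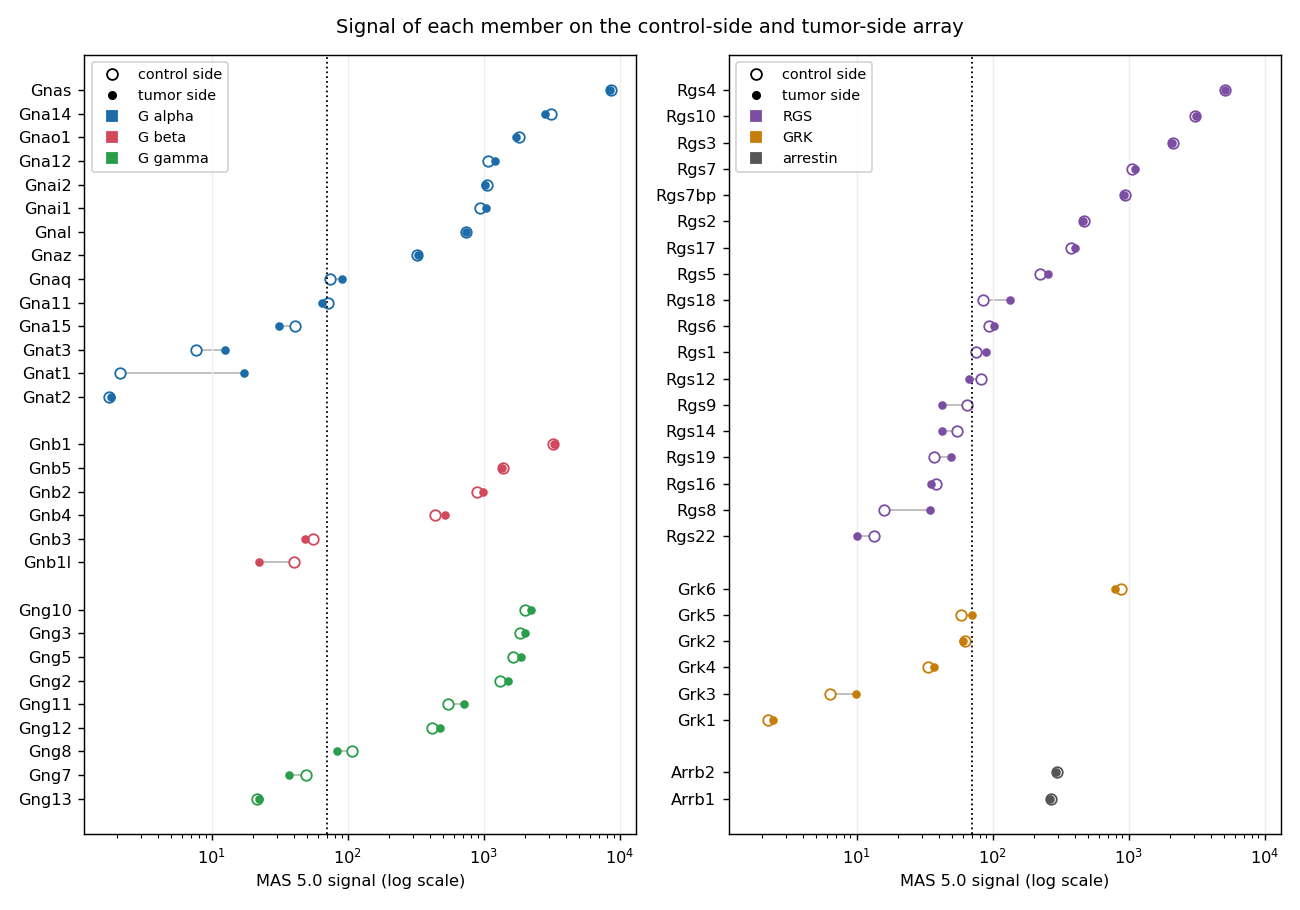
Signal of each gene in control-side DRGs (open circles) and tumor-side DRGs (filled circles), on a log axis, ordered by class and by mean log2 signal, with the dotted line at a signal of 70.2. The circles of bright genes nearly coincide, and those of Gnat1 (2.12 and 17.1) lie farthest apart, at the dim end.

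Signals of different probe sets depend on the probes as well as on the transcript, so the order given here is one of signals and not of transcript levels. Of the 55 genes, 10 were among the brightest 10% of all genes. The first 5, Gnas, Rgs4, Gnb1, Rgs10 and Gna14, were followed by Rgs3, Gng10, Gng3, Gnao1 and Gng5. This set holds a stimulatory, an inhibitory and a Gq class alpha subunit, 1 beta, 3 gamma and 3 RGS genes, but no GRK and no arrestin.

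Among alpha subunits, Gnas, which encodes the Gs protein that activates adenylyl cyclase, had the brightest probe set, with 8637 (control) and 8497 (tumor). A second probe set of Gnas with 1389 and 1368 gave the same log2 ratio, -0.02. The brighter one is open to cross-hybridisation by its suffix (_s_at), and the second carries the suffix _a_at. Probe sets with either suffix were left out in an alternative below. The only other one was dim, with 20.2 and 15.2 (log2 ratio -0.40, percentile 24.6), and when all 3 were averaged the log2 ratio was -0.15, at percentile 2.8, still within the central 95%. Gnal, which encodes the Gs relative Golf known from olfactory neurons, had 738 and 733. On its brightest probe set, Gnal had a log2 ratio of -0.01. This was closer to 0 than the SD of 0.10 found among probe sets of 1 gene around a signal of 1000. No such SD was computed at a signal as high as that of Gnas.

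Of the Gi class, which lowers cAMP and releases beta-gamma pairs onto potassium and calcium channels, Gnao1 had 1802 (control) and 1725 (tumor), and its log2 ratio of -0.06 lay at percentile 6 of probe sets of like signal. Gnao1 has only 1 probe set, of suffix _a_at, and drops out when probe sets of such suffixes are left out. Gnai2 had 1051 and 1021. Gnai1 went the other way, with 938 and 1035, at percentile 70. Gnaz, which encodes the pertussis toxin-insensitive Gz, had 321 and 327. The ratios of these 4 bright genes ran from -0.06 to 0.14, and all 4 lay within the central 95%. The transducin genes of the Gi class, known from photoreceptors and taste cells, were dim. Gnat2 had 1.76 and 1.80 and Gnat3 7.64 and 12.4. Gnat1 had 2.12 and 17.1, and its control-side signal did not exceed the 5.39 of the brightest trp control probe set, for a bacterial transcript that rat RNA does not hold, so no fold is given. It lay at percentile 97.4, just inside the central 95%, while among its nearest 200 neighbours it lay at percentile 98.5.

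Within the Gq class, which activates phospholipase C beta, the brightest probe set belonged to Gna14, at 3088 (control) and 2806 (tumor). Its log2 ratio of -0.14 was small, but at this signal the central 95% of probe sets ran only from -0.07 to 0.24, and Gna14 lay at percentile 1. A second, dimmer probe set of Gna14 did not show it, with 306 and 319, at percentile 41.2. Gnaq, which encodes the founding member of the class, was read from 1 probe set near the array median, with 73.5 and 90.1, and Gna11, its close relative, from 1 with 71.5 and 64.3. At such signals the central 95% was wide, from -0.54 to 0.59 around Gnaq. Gna15, known from blood cells, was dim, with 40.9 and 30.9. It lay at percentile 15.4, within a central 95% that ran from -0.84 to 0.89. The 3 measured granulocyte markers had summed signals of 1141 and 528 and were all lower on the tumor side. Their part in the Gna15 value was not tested. Of the G12 class, Gna12 had 1067 and 1207, with a log2 ratio of 0.18 and, on a second, dim probe set, of 0.11.

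Among beta subunits, Gnb1 was the brightest, with 3242 (control) and 3246 (tumor), and its other 2 probe sets gave log2 ratios of 0.11 and 0.02. Gnb5 followed with 1384 and 1356, Gnb2 with 892 and 977 and Gnb4 with 435 and 518. Gnb4 had the highest ratio of the class, 0.25, at percentile 88.4 of probe sets of like signal. Gnb3, known from cones and taste cells, was dim, with 55.3 and 48.6. Gnb1l encodes a WD-repeat protein that carries the symbol without being a classical beta subunit. It had 40.2 and 22.2, the lowest log2 ratio of all 55 genes, -0.86, yet at this signal it lay at percentile 4.4 and so within the central 95%.

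**Figure D2:**
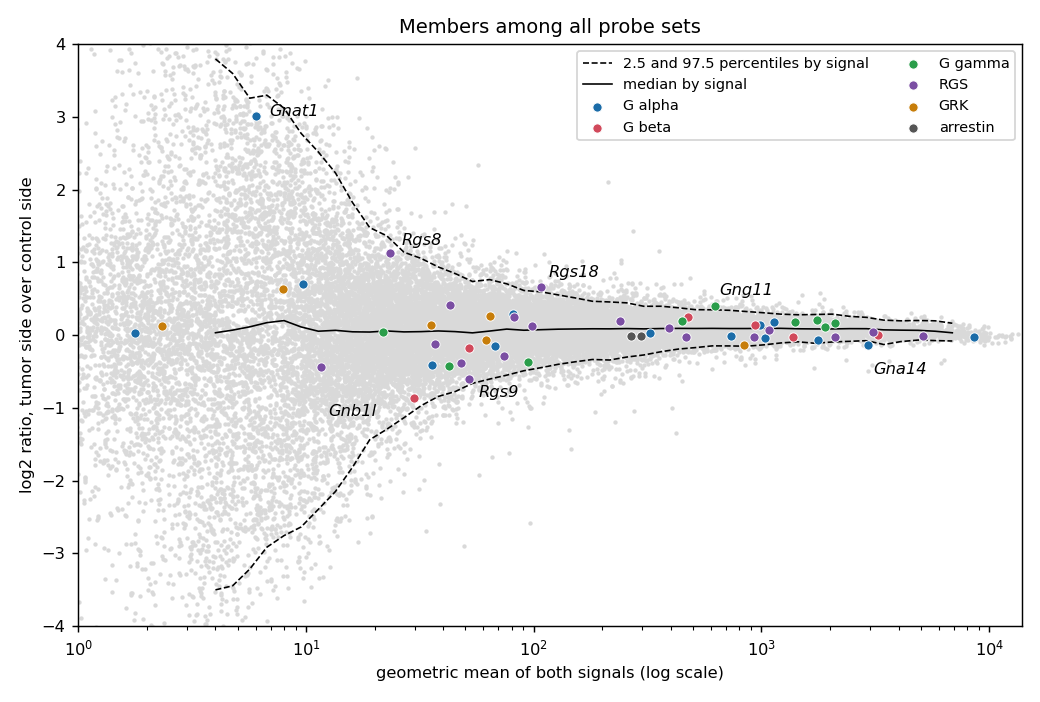
Log2 ratio (tumor over control) against the mean of both signals (geometric, log axis), with 1 grey point per probe set and 1 coloured point per gene described here, with a solid line at the median and dashed lines at the limits of the central 95% by signal. Points outside the drawn axes are left out. Gng11, Rgs18, Gna14 and Rgs9 lie at or beyond the dashed lines, while the larger ratios of Gnat1 and Rgs8 lie inside them.

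The gamma subunits carry the lipid anchor of the beta-gamma pair. Of the 9 genes, 7 had a log2 ratio above the median of probe sets of like signal, as did 49.3% of all genes, and the median over the 9 was 0.16 against 0.08 for all genes. On their brightest probe sets, the 4 genes of highest signal were all slightly higher on the tumor side. Gng10, a broadly expressed subunit, had 1993 (control) and 2231 (tumor). Gng3, a subunit of neurons, had 1835 and 1989, Gng5, a broadly expressed one, 1627 and 1884, and Gng2, the usual partner in studies of beta-gamma signalling, 1315 and 1490. These 4 lay between percentiles 60.6 and 89.2, all within the central 95%. The other probe sets of Gng5 did not share this, with 98.1 and 99.7 on a bright one and 13.1 and 10.8 on a dim one, and averaged over all 3 its log2 ratio was -0.01, at percentile 32. Gng12 had 417 and 477, and on a second bright probe set 103 and 130. On the lower side were Gng8, known from olfactory and vomeronasal neurons, at 107 and 82.8, and Gng7, the partner of Golf in the striatum, at 49.2 and 36.7. Gng13, known from taste cells, was dim, with 21.5 and 22.0. The count of 7 depended on the choice of probe sets, and when all probe sets of a gene were averaged 4 of the 9 lay above the median of like genes.

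Gng11 was the gamma gene outside the central 95% of like probe sets, on the brighter of its 2 probe sets. Its signal was 543 (control) and 718 (tumor), 1.32 times higher (log2 ratio 0.40), where the central 95% of like probe sets ran from -0.14 to 0.35. It lay at percentile 99.2. Its second probe set, which was dim, went the other way with 38.5 and 32.5, and with the mean over both probe sets the log2 ratio was 0.08, at percentile 47.2. Gng11 is known from endothelium, platelets and other cells outside the nervous system. All 3 measured endothelial markers were higher on the tumor side, with summed signals of 554 and 623, though Pecam1, at 61.4 and 62.1, by less than the median gene. Of 4 measured platelet markers, 1 was higher, with summed signals of 296 and 274. Their part in the difference was not tested.

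**Figure D3:**
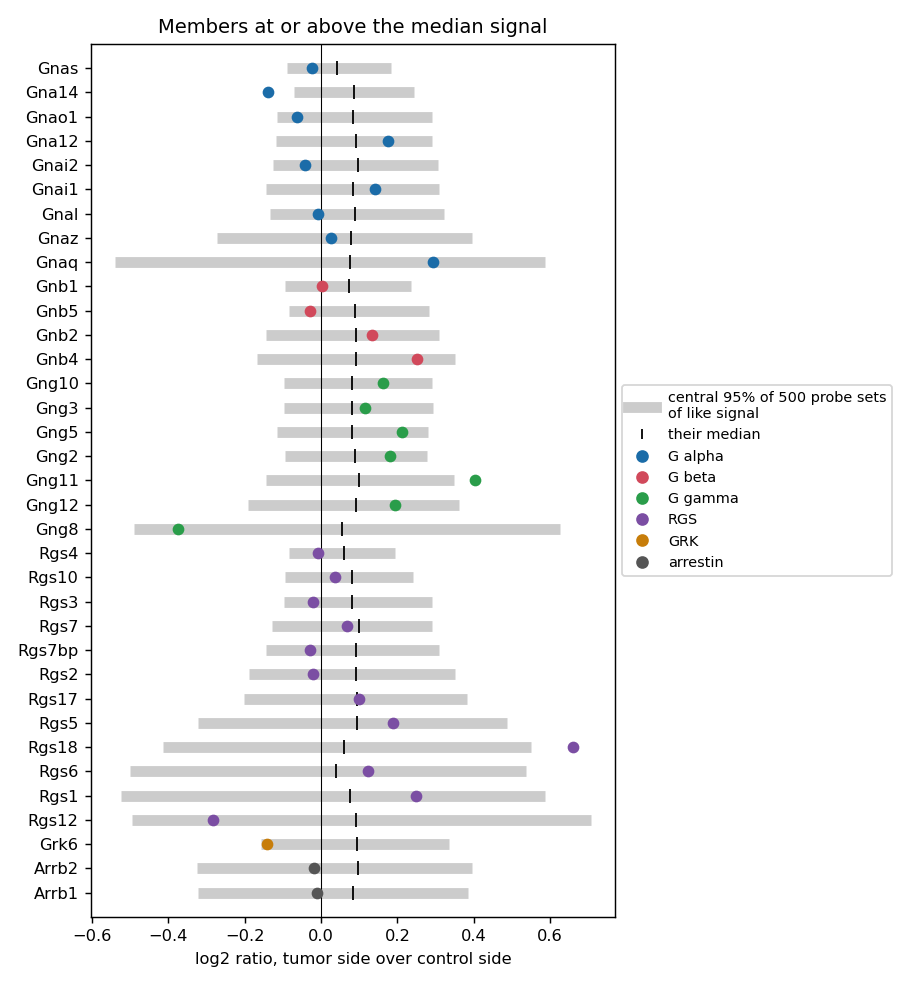
Log2 ratio (tumor over control) for the 35 bright genes (points, coloured by class), each over the central 95% of its 500 like probe sets (grey bars) and their median (black ticks). Gng11 (0.40) and Rgs18 (0.66) lie above their bars and Gna14 (-0.14) below its bar.

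Among RGS genes of the R4 family, small proteins that act on Gi and Gq class subunits, Rgs4, an abundant regulator in neurons, had the brightest probe set. It had 5118 (control) and 5094 (tumor), with 2154 and 2238 on a second probe set. Rgs3 had 2125 and 2094, while its 2 dimmer probe sets went opposite ways with log2 ratios of -0.17 and 0.14. The brightest probe sets of Rgs4 and Rgs3 thus read nearly the same in both DRG samples. Rgs2, which acts on Gq and is induced by many stimuli, had 472 and 465, and on a second probe set 199 and 228. Rgs5, a gene of pericytes, had 224 and 256, while the 6 pericyte and smooth muscle markers had summed signals of 761 and 700. Rgs1, a lymphocyte regulator, had 74.9 and 88.9, and all 4 measured lymphocyte markers were dim. Rgs16, an inducible member, had 38.5 and 35.3. Rgs8, known from Purkinje cells, had 15.8 and 34.5, 2.19 times higher on the tumor side, and lay at percentile 96.6 of like probe sets, within the central 95%.

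Rgs18, an R4 member known from platelets, myeloid cells and osteoclasts, had the largest ratio of the bright genes. Its single probe set gave 85.3 (control) and 135 (tumor), 1.58 times higher (log2 ratio 0.66), at percentile 99.4, where the central 95% ran from -0.41 to 0.55. Markers of the cells it is known from went both ways. All 6 bone and cartilage markers were higher on the tumor side, with summed signals of 1067 and 2114. That list is mixed, and its largest ratio was that of Mmp13, with 103 and 441. Of its osteoclast genes, Acp5 had 82.3 and 166 and Ctsk had 346 and 564. Of 4 macrophage markers, 3 were higher, as were 65.5% of all genes, with summed signals of 603 and 694. All 4 lay within the central 95% of like probe sets. The platelet markers had the summed signals of 296 and 274 given above, with Pf4 at 159 and 168 and Gp9 no brighter than the trp control probe sets. The 3 granulocyte and 4 erythroid markers were lower. The part of these cells in the Rgs18 difference was not tested.

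The R7 family works as a complex with Gnb5 and is held at the membrane by the protein of Rgs7bp, and its neuronal parts were bright together. Rgs7 had 1058 (control) and 1109 (tumor), Rgs7bp had 941 and 922, and Gnb5 had the 1384 and 1356 given above. Their log2 ratios, from -0.03 to 0.07, were all below the median of like probe sets and within the central 95%. Rgs6 was much dimmer, with 94.0 and 102. Rgs9, known from the striatum and photoreceptors, had 64.2 and 42.2. Its log2 ratio of -0.61 lay at percentile 1.8, just outside a central 95% that ran from -0.60 to 0.76. Its second probe set was dimmer, with 19.9 and 19.0, at percentile 43.6. With 1000 neighbours in place of 500, Rgs9 lay at percentile 2.8, inside the central 95%. Its brighter probe set carries the suffix _a_at, and with probe sets of such suffixes left out Rgs9 lay at percentile 42.8.

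Of the R12 family, Rgs10, a regulator of Gi class subunits found in neurons and macrophages, had the second brightest probe set of the RGS genes, with 3051 (control) and 3128 (tumor). Rgs12 had 81.9 and 67.3 and Rgs14 had 54.8 and 42.2. A second, dim probe set of Rgs12 gave 13.9 and 4.21, and as its tumor-side signal did not exceed the 4.63 of the brightest trp control probe set there, no fold is given. All 3 lay below the median of like probe sets, Rgs12 at percentile 8.6 on a probe set of suffix _a_at. Of the RZ family, which acts on Gz and other Gi class subunits, Rgs17 had 379 and 406 on the brightest of its 5 probe sets, and its 4 bright probe sets ranged from -0.02 to 0.26 on the log2 scale. Rgs19 was dim, with 37.2 and 49.4. Rgs22, a testis gene, had 13.5 and 9.99. Over the 18 RGS genes the median log2 ratio was 0.01, against 0.08 for all genes, and 7 lay above the median of like probe sets, as did 49.3% of all genes.

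**Figure D4:**
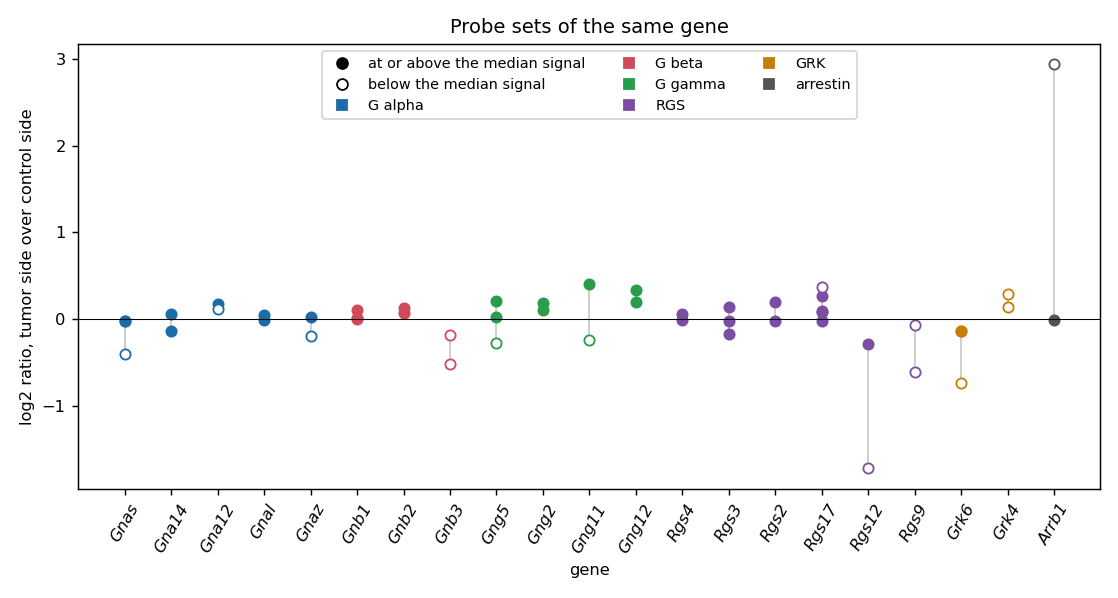
Log2 ratio (tumor over control) for every probe set of the 21 genes with more than 1, coloured by class, with filled points for probe sets at or above the median mean log2 signal and open points for dimmer ones. Filled points of 1 gene lie within 0.32 of each other, while open points scatter more widely, and those of Arrb1 and Rgs12 that lie farthest from the filled ones rest on a signal no brighter than the trp control probe sets.

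Among receptor kinases, only the probe set of Grk6 was bright, with 877 (control) and 795 (tumor). Its log2 ratio of -0.14 lay at percentile 3.2, just inside the central 95%, and its second bright probe set, with 132 and 120, also gave -0.14, at percentile 16.2. The brightest one is open to cross-hybridisation by its suffix (_s_at). With probe sets of suffixes _s_at, _x_at or _a_at left out, Grk6 lay at percentile 16. The third, a dim one, was lower too, with 38.4 and 23.1. Grk2, a widely expressed kinase that beta-gamma recruits to the membrane, had 63.0 and 60.1 on its 1 probe set, and Grk5 had 58.7 and 70.1. Grk4, known from testis, had 33.7 and 37.0, and Grk3, the relative of Grk2, had 6.40 and 9.90. Grk1 had 2.23 and 2.44, no brighter than the trp control probe sets.

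Both beta-arrestins were bright and alike on the 2 sides. Arrb2 had 298 (control) and 294 (tumor), and Arrb1 had 268 and 266. A second probe set of Arrb1 gave 2.18 and 16.7. Its control-side signal did not exceed that of the trp control probe sets, and it lay at percentile 97.2 of equally dim probe sets.

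In 13 genes with several bright probe sets, the range of log2 ratios between bright probe sets had a median of 0.11 and reached 0.28 in Rgs17 and 0.32 in Rgs3. For Gna14 the range was 0.20, between log2 ratios of -0.14 and 0.06 that differed in sign. Between any probe sets of the same gene on the array, the SD of log2 ratios was 0.16 around a signal of 300 and 0.26 around a signal of 100. The log2 ratio of Grk6, -0.14, was a little larger in size than the SD of 0.10 around a signal of 1000. Gna14, also at -0.14, had a higher signal, for which no such SD was computed. The median of like probe sets was 0.09 for both genes, so both lay farther from that median than from 0. These SDs are technical and do not stand for the spread between rats.

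Genes that work with G proteins but carry other symbols were compared in the same way. Of 37 such genes measured, 0 lay outside the central 95% of like probe sets, against 5.3% of all genes, and their median log2 ratio was 0.06 against 0.08 for all genes. Among accessory proteins, Gpsm1, which holds Gi class subunits in the GDP-bound state, had 196 (control) and 163 (tumor) and lay at percentile 3.4. Pdcl, a chaperone of the beta-gamma pair, had 845 and 975. Among proteins with an RGS domain or an anchoring role, Akap10 had 324 and 366 and Axin1 had 169 and 159.

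The effectors were within the central 95% as well. Of the adenylyl cyclases, Adcy2 had 238 (control) and 274 (tumor) and Adcy3 had 318 and 298. Of the phospholipases C beta, the targets of the Gq class, Plcb4 had 293 and 347 and Plcb3 had 213 and 208. Of the potassium channels opened by beta-gamma, Kcnj3 had 90.1 and 110, while Kcnj6 went the other way with 132 and 102, at percentile 4. Gngt2, a gamma subunit outside the symbols used here, had 105 and 118.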

How the data were processed

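The authors computed MAS 5.0 signal intensity values (MAS5 in the submitters' processing notes, default settings) from Affymetrix rat expression arrays, starting from 100 ng of total RNA, and deposited them on a linear scale. Background correction and probe summary are part of these values, how they were scaled is not given in the sources here, and no detection calls were used. From 31042 probe sets without controls, 20826 have 1 gene symbol, 436 several and 9780 none in the probe table. All 55 genes matched the GRCr8 annotation by gene identifier, and 0 symbols needed an update. Log2 ratios of tumor over control were computed without a pseudocount. A gene was counted as apart if its log2 ratio lay outside the central 95% of the 500 probe sets of other genes nearest in mean log2 signal. The members and lists were chosen with earlier results of these data known. Genes were named by class and signal, by lying apart, by a fold of 2 or by disagreeing probe sets, and the others were added to account for every member. The procedure was tested on simulated data in which bright genes were changed by a fold of 2. That simulation does not cover the smaller ratios of the genes counted as apart here, nor the spread between rats. Alternatives were 3 filters on low signal, loess (span 0.3), quantile normalization, centring on the median, a pseudocount of 11.1, averaging a gene's probe sets, probe sets with suffixes _s_at, _x_at or _a_at left out, folds of 1.5 and 3, 200 or 1000 neighbours and a central 99%. The tools were matplotlib 3.10.9, statsmodels 0.14.6, pandas 2.3.3 and numpy 2.4.6 under Python 3.11.15. The number of arrays, 1 per side, limits the precision.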

Additional observations from a re-analysis of the deposited data

How the results depend on the processing

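The same 4 genes lay outside the central 95% after quantile normalization, loess and the pseudocount. Centring cannot change a percentile among like probe sets, so it gave the same 4 by construction. All but Rgs9 remained with a filter at the median signal, with 1000 neighbours and without probe sets with suffixes _s_at, _x_at or _a_at. With 200 neighbours Gnat1 joined the 4 to give 5. With a filter at percentile 75 there were 2, Gna14 and Gng11. When a gene's probe sets were averaged there were 2, of which Rgs18 was shared and Arrb1 was added through a dim probe set no brighter than the trp controls on the control side, and with a central 99% there were 0. The number of genes at least 2 times higher was 1 with the pseudocount, 0 with each of the 3 filters on low signal, and 5 and 1 with folds of 1.5 and 3. The gene left by the pseudocount and by a fold of 3 was Gnat1. Its control-side signal is no brighter than the trp control probe sets, so neither count holds a measured fold. With averaged probe sets the number was 3, as Arrb1 joined through the dim probe set just named. The number at least 2 times lower was 1 with averaged probe sets and 1 without probe sets of the suffixes named. In both cases it was Rgs12 through its dim probe set (13.9 and 4.21). The tumor-side signal of that probe set is no brighter than the trp control probe sets, so these 2 counts hold no measured fold. With a fold of 1.5 the number was 2. Filters and folds change such counts by construction. The median log2 ratio of the 55 genes, 0.03, was -0.04, -0.05 and -0.06 after quantile normalization, centring and loess, so its sign is set by the scaling, and so is that of the other pathway genes (0.06, against -0.01, -0.02 and -0.01). Of 329 single gene values, 315 moved by less than the spread of like probe sets and 14 by more. Many of the 315 could not move. With averaging, only the 21 genes with more than 1 probe set could change, and 7 moved by more. With probe sets left out by suffix, only genes holding such a probe set could change, and 3 moved by more. The other 4 did so with centring, which shifts all genes alike. No paired analysis was possible because either side of the comparison is a single array.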
